A study of Mus musculus with 12 samples.

Results

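Growth factors and TGF-beta signalling genes that take part in tissue repair were examined in alveolar macrophages, phagocytes that live in the airspaces of the lung, after repeated inhalation of ozone. The 10 genes were Lrg1, Eng, Tgfb1, Tgfbi, Igf1, Pdgfa, Pdgfb, Areg, Hbegf and Vegfa, chosen by symbol from the 55291 genes of the deposited table, and each was found once. The choice was made with the ozone comparison of these data already known, and Lrg1 was known to be one of its largest rises. For these 10 genes the ozone comparison is therefore given as a description with intervals, without p-values.

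The ozone group held 6 female C57BL/6NJ mice, aged 8 to 11 weeks, that had breathed 0.8 ppm ozone for 4 h per day on 4 days in a row. The control group held 6 mice of the same strain, sex and age range that had breathed filtered air on the same schedule. Lungs were taken 3 days after the last exposure, and alveolar macrophages were sorted by flow cytometry in 2 batches, each with 3 mice of either group. The values are polyadenylated RNA of whole sorted samples from 1 inbred strain and 1 sex.

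TGF-beta is secreted in a latent form. It is cut from its precursor by proteases such as furin, stored on latent TGF-beta binding proteins, and released by integrins or thrombospondin. It then signals through the receptors encoded by Tgfbr1 and Tgfbr2 to SMAD proteins. Leucine-rich alpha-2-glycoprotein, the product of Lrg1, is a secreted protein that binds endoglin (Eng), an accessory receptor, and is known for steering TGF-beta signalling in endothelial cells toward the receptor Acvrl1. Neutrophils and liver cells also make it. Macrophages release insulin-like, platelet-derived, vascular endothelial and epidermal growth factors that act on fibroblasts, vessels and epithelium during lung repair.

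Every value is variance-stabilized expression on a log2 scale, set so that filtered air averages 0 for each gene. Abundance is lost in such values, so levels cannot be compared between genes, and differences of genes with few reads are understated. All 10 genes had reads in all 12 mice. RNA integrity numbers lay between 9.2 and 9.7 after ozone and between 8.9 and 9.7 in filtered air, and filtered-air mouse 4 had the lowest. All 12 markers of resident alveolar macrophages had reads in all 12 mice. Of these, 3 passed the threshold of the ozone comparison (limma, adjusted p under 0.05), which is 25.0% beside 4.25% of all genes tested: Car4 was higher, at 0.32, and Krt79 and Ear1 were lower, at -0.35 and -0.28. The 12 differences ran from -0.35 to 0.58 with a median of -0.038. Because the table holds no abundance, the labelled cell type could not be checked further.

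The upstream sequences of Lrg1 and of the 2 genes with the largest differences among the pathway genes past the threshold, Tgfb2 and Nrp2, are shown as the stretches next to the measured changes. They come from RefSeq (GRCm38.p6, the assembly of the mm10 build) and run 5′ to 3′ on the strand of the gene, up to the gene's 5′ end in RefSeq or, where that lies farther out, in GENCODE M21. Lrg1 lies at chr17:56119678-56122001 on the minus strand. Capitals mark ACGTG, the core to which hypoxia-inducible factors bind, and CAGAC, a SMAD half-site, on either strand.
Lrg1: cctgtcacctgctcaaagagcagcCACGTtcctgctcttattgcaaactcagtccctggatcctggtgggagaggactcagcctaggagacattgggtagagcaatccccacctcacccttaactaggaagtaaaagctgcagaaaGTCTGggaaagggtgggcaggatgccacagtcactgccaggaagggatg
Tgfb2: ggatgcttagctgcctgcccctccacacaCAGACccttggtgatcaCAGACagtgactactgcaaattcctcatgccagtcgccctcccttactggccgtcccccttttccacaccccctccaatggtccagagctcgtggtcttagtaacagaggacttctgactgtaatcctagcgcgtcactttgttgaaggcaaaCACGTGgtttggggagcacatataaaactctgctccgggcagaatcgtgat
Nrp2: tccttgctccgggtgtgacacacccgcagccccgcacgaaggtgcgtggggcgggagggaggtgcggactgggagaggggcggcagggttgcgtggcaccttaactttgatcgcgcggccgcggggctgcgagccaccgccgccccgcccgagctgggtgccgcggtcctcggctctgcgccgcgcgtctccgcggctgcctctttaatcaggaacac
The stretch of Lrg1 is chr17:56122002-56122196 (minus strand), that of Tgfb2 is chr1:186705990-186706239 (minus strand) and that of Nrp2 is chr1:62703067-62703284 (plus strand). Lrg1 held 1 ACGTG and 1 CAGAC, Tgfb2 held 2 of each with the pair of ACGTG overlapping in a palindrome, and Nrp2 held 0 of either. Over the 250 bases before a start, ACGTG was found in 16.6% and CAGAC in 42.2% of all 32851 windows. Windows were found for 8 of the 10 genes and were not used for the other two; ACGTG occurred in 2 of the 8 and CAGAC in 4. The STAT palindrome TTCNNNGAA occurred in 0 of the 8, against 7.02% of all windows. These are matches of letters only.

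Lrg1 was the only one of the 10 genes that passed the threshold over all genes tested (limma, adjusted p under 0.05), and it rose. That is 1 of 10, where 4.25% of the 19633 genes tested passed and 2.41% passed as higher. The other 9 genes did not pass. The median difference of the 10 genes was 0.025, beside -0.0033 over all genes tested.

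The values of Lrg1 in filtered-air mice 1 to 6 were 0.019, -0.12, -0.18, 0.68, -0.094 and -0.31, and in ozone mice 1 to 6 they were 0.72, 1.12, 0.96, 1.24, 0.78 and 0.95. All 6 ozone mice lay above all 6 filtered-air mice, but the gap was narrow because filtered-air mouse 4 lay just under the lowest ozone mouse; the other 5 filtered-air mice lay at or near 0 or below. Groups without overlap were found in 1 of the 10 genes and in 3.53% of all genes tested. The difference was 0.96 (95% interval 0.66 to 1.26). It was 1.13 in batch 1 and 0.79 in batch 2, and 1.11 without filtered-air mouse 4. The call was lost in batch 2 alone, with 3 mice per group, and when the variance prior followed the mean of a gene, which in this table is itself made of the ozone difference.

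**Figure D1:**
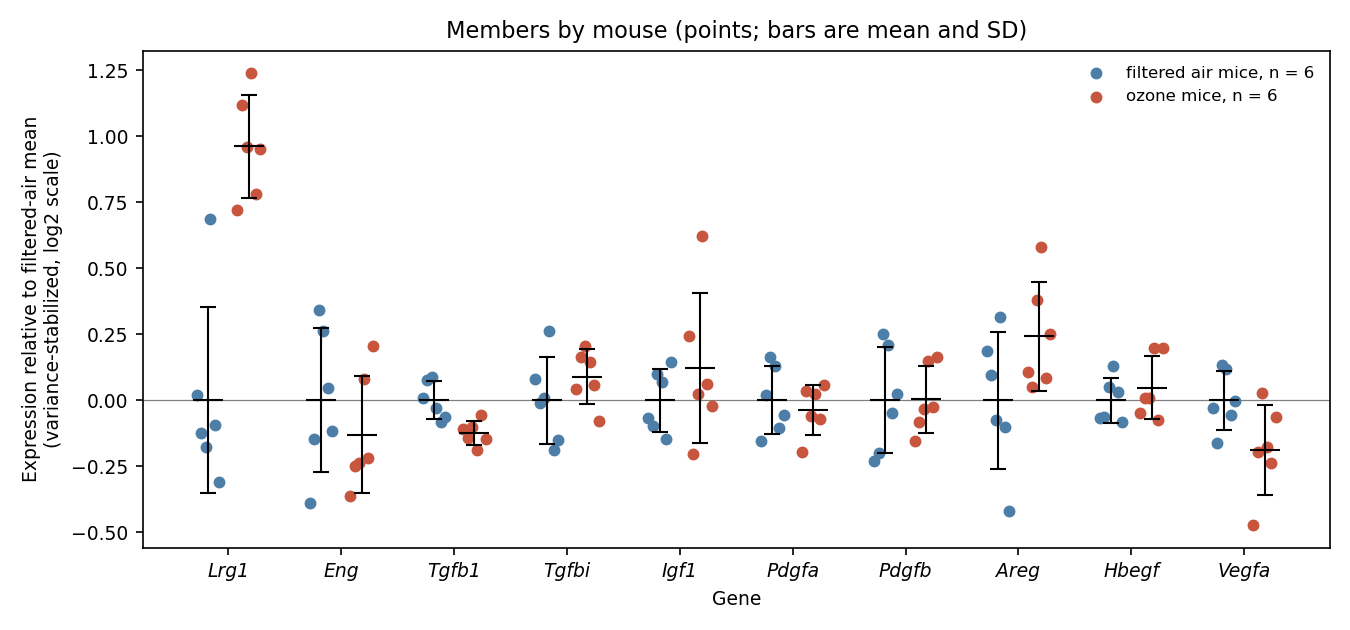
Expression of the 10 genes (horizontal axis) in each mouse on the variance-stabilized log2 scale relative to the filtered-air mean (vertical axis); points are mice, 6 per group, and bars are mean and SD. Lrg1 in the ozone mice lies between 0.72 and 1.24, above every filtered-air mouse, while the groups overlap in the other 9 genes.

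Neutrophils carry Lrg1 RNA, so neutrophil markers were read in the same mice. Of 12 markers, 7 passed the filter on low values, and 0 of these passed the threshold (median difference -0.015). The 7 differences ran from -0.27 to 0.17, with 3 above 0 and 4 below, so a mean of these markers averages over both directions. An unadjusted p under 0.05 in limma was found in 1 of the 7, beside 3283 of all 19633 genes tested. Camp and Elane, which encode granule proteins, stood at the shared lowest value in all 12 mice, and Ly6g, a surface marker of mouse neutrophils, had reads in 1 mouse, filtered-air mouse 5. The other two markers below the filter had reads in ozone mice only. Mpo, which encodes myeloperoxidase, had reads in 3 ozone mice, at 0.092, 0.084 and 0.25 in ozone mice 2, 3 and 6. Ngp, which encodes a granule protein, had reads in 2, at 0.22 and 0.25 in ozone mice 3 and 4. In filtered air 0 of 6 mice had reads of either. The shared lowest value was 0.027 in batch 1 and -0.027 in batch 2 for Mpo, and -0.0030 and 0.0030 for Ngp. The first step above it, about 1 read, was 0.097 to 0.115 across the mice. These values therefore stand for few reads. The mean of the 7 markers that passed the filter, which leaves out Mpo and Ngp, was 0.052, -0.10, -0.014, 0.24, -0.047 and -0.13 in filtered-air mice 1 to 6 and 0.040, -0.00023, -0.065, 0.031, -0.0075 and 0.031 in ozone mice 1 to 6. The highest mouse was filtered-air mouse 4, which was also the filtered-air mouse with the most Lrg1. The ozone mice lay between -0.065 and 0.040 on this mean, inside the filtered-air range. The part of neutrophil RNA in the Lrg1 difference was not tested.

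The genes whose values followed Lrg1 most closely within the groups were taken over the 12 mice after the means of group and batch had been removed. They were Lpcat2, which encodes an enzyme of platelet-activating factor synthesis, with r = 0.97, Cav1, the main protein of caveolae, with r = 0.94, AA467197 with r = 0.93, Map3k12 with r = 0.93 and Zdbf2 with r = 0.93. These are the top values among 17167 genes and are given as a description; all share the same libraries. None of the 5 passed the threshold for ozone, with limma's adjusted p between 0.0805 and 0.979.

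Endoglin, the receptor to which the Lrg1 product binds, did not pass the threshold, and its spread between mice was wide. Eng was -0.39, -0.15, 0.34, 0.26, 0.046 and -0.11 in filtered-air mice 1 to 6 and -0.36, -0.25, -0.24, 0.079, -0.22 and 0.21 in ozone mice 1 to 6. Filtered-air mice 3 and 4 and ozone mouse 6 were high, filtered-air mouse 1 and ozone mouse 1 were low, and the groups overlapped. The difference was -0.13 (95% interval -0.40 to 0.13). Leaving out single mice moved it from -0.055 without filtered-air mouse 3 to -0.22 without filtered-air mouse 1; it was -0.073 without filtered-air mouse 4, -0.080 without ozone mouse 1 and -0.21 without ozone mouse 6.

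Eng is a marker of endothelial cells, and its values ran beside a list of 10 endothelial markers that did not include it. The mean of these markers was -0.29, -0.16, 0.31, 0.25, -0.017 and -0.10 in filtered-air mice 1 to 6 and -0.36, -0.27, -0.27, 0.057, -0.22 and 0.22 in ozone mice 1 to 6. The 3 mice highest in Eng were the 3 mice highest in this mean. All 10 markers had reads in all 12 mice, and 0 passed the threshold (median difference -0.13). All 10 had a difference below 0, beside 10210 of all 19633 genes tested. The gene most like Eng within the groups was Tek, the angiopoietin receptor of endothelial cells (r = 0.99 over 12 mice). Transcripts of these endothelial markers moved with Eng from mouse to mouse. Which cells they came from, and the part of endothelial RNA in the difference, was not tested. In such bulk samples fewer cells of a type and less RNA per cell cannot be told apart.

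**Figure D2:**
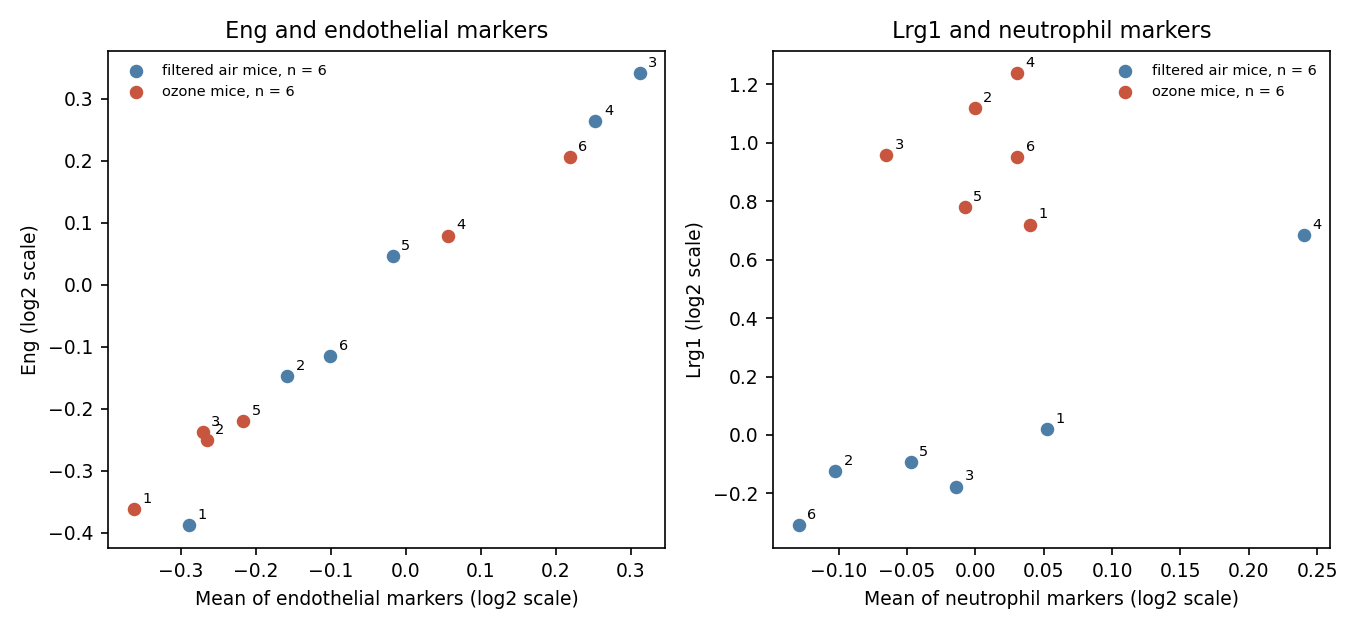
Each point is 1 mouse, numbered within its group of 6, on the log2 scale relative to the filtered-air mean: Eng (vertical) against the mean of 10 endothelial markers (horizontal) on the left, and Lrg1 (vertical) against the mean of 7 neutrophil markers (horizontal) on the right. Eng rises with the endothelial mean from mouse to mouse in both groups. On the right the ozone mice lie between -0.065 and 0.040 on the neutrophil axis, which leaves out Mpo and Ngp, and filtered-air mouse 4 is the highest on it at 0.24.

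Tgfb1, the TGF-beta ligand that macrophages are best known for, had the narrowest spread of the 10 genes. It ran from -0.082 to 0.089 (median -0.011) in filtered air and from -0.19 to -0.056 (median -0.13) after ozone. Of the ozone mice, 5 lay below all filtered-air mice, and ozone mouse 5 lay inside their range. The difference was -0.12 (95% interval -0.21 to -0.037, not adjusted for the number of genes), close in both batches at -0.13 and -0.11, and it did not pass the threshold over all genes. Tgfbi, an extracellular matrix protein induced by TGF-beta, ran from -0.19 to 0.26 in filtered air and from -0.077 to 0.20 after ozone. Its difference was 0.090 (95% interval -0.065 to 0.24), with 0.16 in batch 1 and 0.023 in batch 2. It was 0.047 without filtered-air mouse 5, 0.056 without filtered-air mouse 6 and 0.15 without filtered-air mouse 4. Within the groups Tgfb1 was most like Rbmx2 (r = 0.95) and Tgfbi most like Tspo (r = 0.97).

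Other genes of the same pathways were taken from 10 lists written by name, to ask what surrounded the 10 growth factor genes. Of 125 listed genes 122 passed the filter on low values, and 9 of them passed the threshold, 3 higher and 6 lower, which is 7.38% beside 4.25% of all genes tested (2.41% higher and 1.84% lower). The median difference of the 122 genes was -0.031, against -0.0033 over all genes. An unadjusted p under 0.05 in limma was found in 30 of the 122, beside 3283 of the 19633 genes tested. By list, the highest count was 7 of 18, among other repair growth factors. Kdr, Pdgfra and Pdgfrb also stand in the lists of cell type markers. After quantile normalization of the mice 2 of the 9 calls stood, Nrp2 and Grn, and 0 of the 6 falls.

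Lists of cell type markers were read beside the 6 falls. Over all genes tested, 10210 of 19633 had a difference below 0. Such differences were found in 8 of 12 resident alveolar macrophage markers and in 8 of 10 T and innate lymphoid markers. They were also found in 4 of 7 neutrophil markers. The fibroblast and pericyte markers were above 0 in 6 of 10 genes, and the platelet and megakaryocyte markers in 3 of 6. Of 11 epithelial markers 8 were below 0 (median -0.044), and 1 was called, Epcam, an adhesion molecule of epithelium, which fell by 0.55 without overlap (limma's adjusted p = 0.00620). The mean of the epithelial markers ran from -0.21 to 0.061 after ozone and from -0.18 to 0.28 in filtered air. Epcam did not follow this mean in every mouse. Filtered-air mouse 1 had the highest Epcam (0.27) and the lowest mean of its group (-0.18). Ozone mouse 6 had the lowest Epcam (-0.76) and the highest mean of its group (0.061). The B cell markers were below 0 in 6 of 7 genes and the endothelial markers in 10 of 10, with 0 called in either list, and the mean of the B cell markers ran from -0.34 to -0.037 after ozone and from -0.21 to 0.33 in filtered air. The part of these cells' RNA in the pathway falls was not tested.

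Among 12 genes of TGF-beta ligands, latency and activation, 2 fell, 0 rose and 10 did not pass. Tgfb2, which encodes another TGF-beta ligand, ran from -0.32 to 0.23 (median 0.070) in filtered air and from -0.58 to -0.23 (median -0.42) after ozone. The ozone mice were low, but filtered-air mouse 5 lay among them. Tgfb2 fell by 0.41 (SE 0.0896, limma's adjusted p = 0.0185). Furin, the protease that cuts the TGF-beta precursor, ran from -0.21 to 0.13 (median 0.030) in filtered air and from -0.50 to -0.089 (median -0.46) after ozone. Most ozone mice were low, and ozone mouse 5 lay inside the filtered-air range. Furin fell by 0.37 (SE 0.0761, limma's adjusted p = 0.0124); without both mice numbered 4 the difference was -0.33 with limma's adjusted p = 0.0686. Thbs1, which encodes thrombospondin 1, had a larger difference than either, -0.59 (95% interval -1.03 to -0.15), but varied widely between mice and did not pass.

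Over all 19633 genes tested, 3283 had an unadjusted p under 0.05 in limma. Receptors and SMADs of the TGF-beta and BMP pathways gave 0 calls among 13 genes, with 3 at such a p and a median of -0.041. The smallest p belonged to Tgfbr2, the type II receptor, with a difference of 0.13 (SE 0.0397, limma's adjusted p = 0.0961) and no overlap between groups; without filtered-air mouse 3 the difference was 0.098. The other two of these 3 genes had differences below 0, and in both the groups overlapped. Tgfbr3, which encodes the accessory receptor betaglycan, had a difference of -0.19 (SE 0.0609, limma's adjusted p = 0.115). Acvrl1, the receptor toward which the Lrg1 product steers signalling in endothelial cells, ran from -0.049 to 0.10 (median -0.041) in filtered air and from -0.26 to -0.037 (median -0.14) after ozone, with a difference of -0.15 (SE 0.0483, limma's adjusted p = 0.105). Acvrl1 is known mainly from endothelium; the part of endothelial RNA was not tested. Among 14 feedback and target genes, 1 fell, 0 rose and 13 did not pass. That gene was Skil, which encodes a repressor of SMAD activity and is itself induced by TGF-beta. Skil ran from -0.12 to 0.068 (median 0.0038) in filtered air and from -0.27 to -0.14 (median -0.22) after ozone, with all ozone mice below all filtered-air mice. It fell by 0.21 (SE 0.0398, limma's adjusted p = 0.00886).

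**Figure D3:**
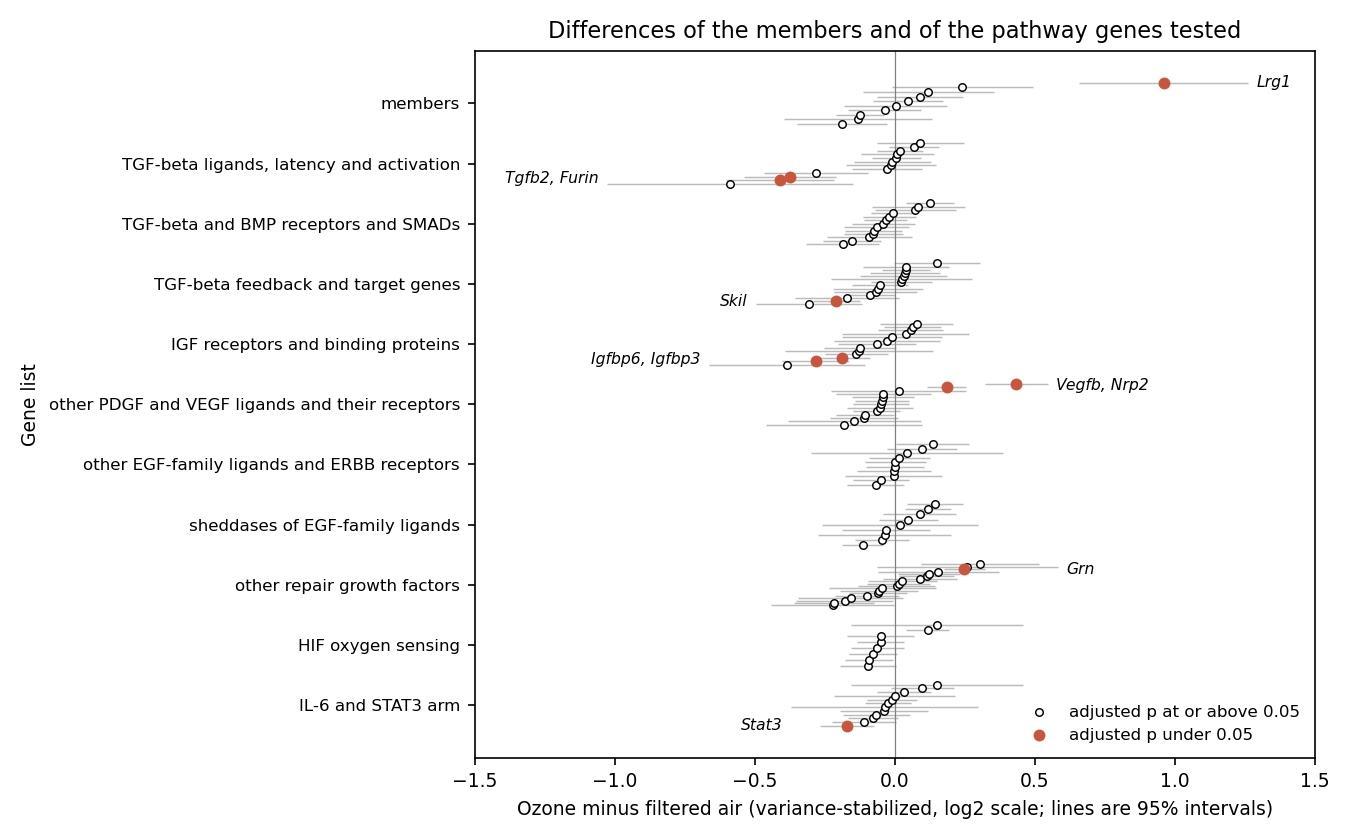
Difference between ozone and filtered air on the variance-stabilized log2 scale (horizontal axis) for each gene of the growth factor group (top row, members) and of the 10 pathway lists (vertical axis); lines are 95% intervals, filled points passed the adjusted threshold and are named. Lrg1 at 0.96 lies farthest from 0, Nrp2 at 0.43 is the highest of the pathway genes, and 6 of the 9 filled pathway points lie below 0.

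Igf1, a growth factor of macrophages that acts on epithelium and fibroblasts, did not pass. It ran from -0.15 to 0.15 (median 0.0012) in filtered air and from -0.20 to 0.62 (median 0.043) after ozone. Ozone mouse 4 was far above the rest and ozone mouse 2 was the lowest of all 12. The difference was 0.12 (95% interval -0.11 to 0.35); it was 0.0095 without ozone mouse 4 and 0.19 without ozone mouse 2, and 0.20 in batch 1 and 0.043 in batch 2. Igf1 was most like Col6a3, a collagen chain of connective tissue, within the groups (r = 0.93). The fibroblast and pericyte markers had a median difference of 0.046, with 1 of 10 called (Cspg4, 0.44), and their mean ran from -0.082 to 0.22 after ozone and from -0.086 to 0.11 in filtered air; their part was not tested.

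Of 13 IGF receptors and binding proteins, 2 fell, 0 rose and 11 did not pass. Both were binding proteins, which hold IGF outside cells. Igfbp6 ran from -0.17 to 0.14 (median 0.000074) in filtered air and from -0.35 to -0.16 (median -0.30) after ozone; ozone mouse 1 lay just above filtered-air mouse 1, the lowest of its group, and the other ozone mice were lower. It fell by 0.28 (SE 0.0559, limma's adjusted p = 0.0111). Igfbp3 fell by 0.19 (SE 0.0466, limma's adjusted p = 0.0341), with values from -0.33 to -0.10 after ozone and from -0.12 to 0.069 in filtered air. The call did not hold when filtered-air mouse 1, 3, 4 or 5 or ozone mouse 1, 2, 3 or 4 was left out, where adjusted p-values lay up to 0.0860. Igf1r, the receptor of the Igf1 product, was not called, with a difference of 0.039 (95% interval -0.19 to 0.27).

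The platelet-derived growth factor chains, which stimulate fibroblasts and pericytes, did not pass. Pdgfa ran from -0.15 to 0.16 (median -0.017) in filtered air and from -0.20 to 0.056 (median -0.018) after ozone, with a difference of -0.036 (95% interval -0.17 to 0.095). Pdgfb ran from -0.23 to 0.25 (median -0.012) in filtered air and from -0.15 to 0.16 (median -0.030) after ozone, with a difference of 0.0034 (95% interval -0.18 to 0.19). In both genes filtered-air mice 3 and 4 were the highest of their group and the groups overlapped, as in Eng. These 2 mice also had the highest endothelial means of their group. Pdgfa was most like Ramp2, one of the endothelial markers (r = 0.96), and Pdgfb most like Parva (r = 0.96); the part of endothelial RNA was not tested. The sign of the small differences turned in batch 1 for Pdgfa (0.026) and in batch 2 for Pdgfb (-0.017), and without single mice they ranged from -0.070 to 0.00059 for Pdgfa and from -0.048 to 0.059 for Pdgfb.

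Vegfa, the main growth factor of vessels, ran from -0.16 to 0.13 (median -0.017) in filtered air and from -0.47 to 0.026 (median -0.19) after ozone. Of the ozone mice, 4 lay below all filtered-air mice and ozone mouse 1 was far lower than the rest. The difference was -0.19 (95% interval -0.35 to -0.026, not adjusted for the number of genes) and did not pass over all genes; without ozone mouse 1 it was -0.12. The gene most like it was Col4a6 (r = 0.93).

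The other PDGF and VEGF ligands and their receptors numbered 13, of which 2 rose, 0 fell and 11 did not pass. Nrp2, a co-receptor for VEGF and semaphorins, ran from -0.067 to 0.21 (median -0.038) in filtered air and from 0.37 to 0.56 (median 0.41) after ozone. All ozone mice were above all filtered-air mice, and filtered-air mouse 4 was again the nearest to them. Nrp2 rose by 0.43 (SE 0.0521, limma's adjusted p = 0.000530). Its relative Nrp1 was not called, at -0.045 (95% interval -0.14 to 0.053). Vegfb, a ligand of the same family as Vegfa, ran from -0.040 to 0.067 (median -0.0053) in filtered air and from 0.16 to 0.22 (median 0.18) after ozone, again without overlap. It rose by 0.19 (SE 0.0332, limma's adjusted p = 0.00620). Whether Vegfb and Vegfa differ from each other in their response was not tested.

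**Figure D4:**
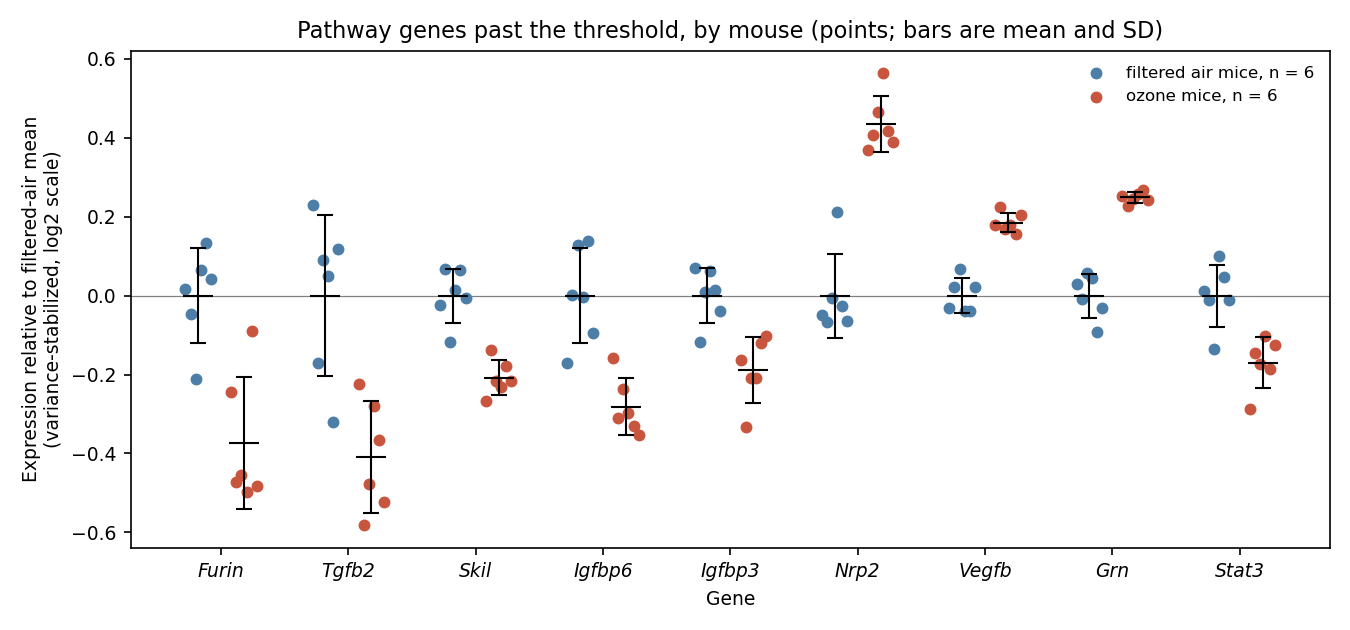
Expression in each mouse of the 9 pathway genes (horizontal axis) that passed the threshold, on the variance-stabilized log2 scale relative to the filtered-air mean (vertical axis); points are mice, 6 per group, and bars are mean and SD. Nrp2, Vegfb and Grn lie higher and Skil lies lower in every ozone mouse than in every filtered-air mouse, while the groups overlap in Tgfb2, Furin, Igfbp6, Igfbp3 and Stat3.

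Amphiregulin (Areg) and heparin-binding EGF-like growth factor (Hbegf), membrane-bound ligands of the EGF receptor that are shed to act on epithelium, did not pass. Areg ran from -0.42 to 0.31 (median 0.010) in filtered air and from 0.049 to 0.58 (median 0.18) after ozone. All ozone mice lay above 0, but only ozone mice 3 and 4 exceeded filtered-air mouse 4, and filtered-air mouse 6 was the lowest. The difference was 0.24 (95% interval -0.0083 to 0.49), the second largest positive difference of the 10 genes, and 0.15 without filtered-air mouse 6. Lymphocytes also make amphiregulin; 0 of 10 markers of T and innate lymphoid cells were called (median -0.044), and their mean ran from -0.23 to 0.18 after ozone and from -0.26 to 0.24 in filtered air. Of 7 B cell markers 0 were called, but 6 had a difference below 0 and 4 an unadjusted p under 0.05 in limma (median -0.20). Over all 19633 genes tested, 10210 were below 0 and 3283 had such a p. The part of lymphocyte RNA in the Areg difference was not tested. The gene most like Areg within the groups was Il1b, an inflammatory cytokine (r = 0.96), which itself did not pass (difference 0.024). Hbegf lay between -0.081 and 0.13 in filtered air and between -0.077 and 0.20 after ozone, with ozone mice 4 and 6 above all others. Its difference was 0.048 (95% interval -0.076 to 0.17). It was 0.014 without ozone mouse 4, 0.014 without ozone mouse 6, 0.030 without filtered-air mouse 6, 0.077 without filtered-air mouse 4 and 0.075 without ozone mouse 5. Hbegf was most like Me1, a cytosolic malic enzyme (r = 0.98).

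Around these ligands, 0 of 10 other EGF-family ligands and ERBB receptors passed. Beside 3283 of all 19633 genes tested, 1 of the 10 had an unadjusted p under 0.05 in limma. It was Nrg4, a neuregulin, at 0.14 (SE 0.0608, limma's adjusted p = 0.274). Of 9 sheddase genes, whose products release the ligands from the cell surface, 0 passed. Beside 3283 of all 19633 genes tested, 3 of the 9 had an unadjusted p under 0.05 in limma. The smallest p was that of Rhbdf1, an inactive rhomboid that escorts the sheddase Adam17, with a difference of -0.11 (SE 0.0345, limma's adjusted p = 0.0847). Adam17 itself showed no overlap between the groups but did not pass, at 0.12 (SE 0.0383, limma's adjusted p = 0.111), and Adam10, another sheddase, was at 0.14 (SE 0.0468, with the same adjusted p) with overlap.

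Among 18 other repair factors, 1 rose, 0 fell and 17 did not pass. Grn, which encodes progranulin, a secreted growth factor that is also a lysosomal protein, ran from -0.092 to 0.056 (median 0.010) in filtered air and from 0.23 to 0.27 (median 0.25) after ozone. The ozone mice lay close together (SD 0.0137, n = 6, against 0.0557 in filtered air) and all above the filtered-air mice. Grn rose by 0.25 (SE 0.0345, limma's adjusted p = 0.00160).

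Regulators that are known to act on Vegfa and Lrg1 were read last. In the HIF oxygen sensing list, 0 of 8 genes passed. Beside 3283 of all 19633 genes tested, 2 of the 8 had an unadjusted p under 0.05 in limma. Hif1a, the oxygen-regulated subunit, had the smallest p of the list, without overlap between the groups, at 0.12 (SE 0.0360, limma's adjusted p = 0.0845). The other was Arnt, its partner subunit, at -0.091 (SE 0.0399, limma's adjusted p = 0.265). In the list of interleukin-6 and STAT3 signalling, through which the liver is known to induce Lrg1, 1 of 12 genes passed. Stat3 fell by 0.17 (SE 0.0450, limma's adjusted p = 0.0484), from a range of -0.14 to 0.099 in filtered air to one of -0.29 to -0.10 after ozone. This call stood close to the threshold and, of the 12 fits that each left out 1 mouse, was kept only without filtered-air mouse 3 (adjusted p 0.0200), with values up to 0.0988 in the others; with the replicate number as a block it was 0.0646. Socs3, a feedback target of STAT3, was not called (95% interval -0.21 to 0.21).

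Whether the ozone effect differed between the batches was asked with an interaction term, which the choice of the 10 genes had not used. Of the 10 genes 0 passed in limma, 0 had an unadjusted p under 0.05, and the lowest unadjusted p was 0.249, in Lrg1. Over all genes 0% passed, with 510 at an unadjusted p under 0.05. For Lrg1 the difference in batch 2 minus that in batch 1 was -0.34 (SE 0.278), with 3 mice per group in each batch.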

How the data were processed

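RNA of flow-sorted alveolar macrophages was sequenced from 12 mice, 6 per group. The authors deposited log2-scale values, variance-stabilized and batch-corrected according to the name of the table. The submitters' processing notes name cutadapt, STAR 2.7.7a, Salmon 1.5.2, DESeq2 1.26.0, R 3.6.0, limma 3.42.2 and the build mm10, without roles; the annotation is not given in the sources used here. In the values, the filtered-air mean and the difference between the sort batches were 0 in every gene. Values at the lowest value that the mice of a batch share for a gene were taken as no reads; the number of reads is unknown.

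Ozone was compared with filtered air in limma 3.58.1 (R 4.3.3), without a variance trend and with batch as a covariate. The test was two-sided and adjusted by the Benjamini-Hochberg method at 0.05 over the 19633 genes in which at least 6 mice lay above the shared lowest value. The pipeline was tested on simulated data. The 10 genes, the lists and the settings were chosen with earlier results of these data known. Named pathway genes were up to 4 called genes per list by smallest p, or the smallest p where none was called; Thbs1, Tgfbr3, Acvrl1, Igf1r, Nrp1, Adam10, Adam17, Arnt, Socs3 and the called markers were named after their values were seen. Likeness is Pearson's r over 12 mice of what remains after group and batch means. Alternatives were other filters, variance priors, normalization, covariates, single batches and leaving out mice.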

Additional observations from a re-analysis of the deposited data

Results flagged for a closer look

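In groups of 6, a mouse was marked where its gap to the nearest mouse, as a share of the range of the group, exceeded Dixon's critical value. Of 46 groups examined, 2 for each of 23 genes, 3 were marked, and chance marks about 5% of groups, 2.3 here. Filtered-air mouse 4 stood apart in Lrg1, at 0.68, where the other filtered-air mice lay between -0.31 and 0.019. The same mouse stood apart in Nrp2, at 0.21, against -0.067 to -0.0058 in the others. In both genes it lay nearest to the ozone mice, and without it the differences were 1.11 for Lrg1 and 0.48 for Nrp2. It also had the lowest RNA integrity number (8.9), and its means of the neutrophil, epithelial and B cell markers were the highest; their part was not tested. Filtered-air mouse 3 stood apart in Tgfbr2, at -0.13, below the others at -0.00085 to 0.052.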

How the results depend on the processing

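The total of 834 genes called became 171 after quantile normalization, 90 in batch 1 alone, 0 in batch 2 alone (limma, fewer mice in both, with 1800 genes at an unadjusted p under 0.05 in batch 2) and 534 without both mice numbered 4, a setting chosen after seeing the data; without single mice it ranged from 538 (without filtered-air mouse 1) to 751. The call of Lrg1, the 1 called member of the group, was lost with the variance trend (0 called) and in batch 2 alone (0 called); it was kept in the 12 fits without single mice, with 1 to 1 called. The pathway calls, 3 higher and 6 lower, became 1 and 0 in batch 1 alone, 0 and 0 in batch 2 alone, and 2 and 0 after quantile normalization; without single mice they ranged from 3 to 4 and from 4 to 6. The cause was not tested. The 13 pathway genes named by the rule kept their direction under the settings run, while the small differences of Pdgfa and Pdgfb did not; the 9 pathway genes named after their values were seen were not rerun, and Socs3 was 0.059 in batch 1 and -0.059 in batch 2. Over all settings, the 13 genes lost a call 50 times and gained one 2 times (Rhbdf1 and Hif1a, without the batch covariate). The interaction gave 0 calls among the 10 genes without the filter, with the variance trend, after quantile normalization and (0 to 0) without single mice. The labels give replicate numbers for different animals and do not state a pairing. Same-numbered mice had correlations of -0.0094 to 0.30 of their deviations, 4 of 6 over 0.1. When each mouse was set against the 6 mice of the other group, 6 of 12 were closest to their own number. Whether same-numbered mice shared a condition was not tested. With the replicate number as a block, the SE of Lrg1 was 0.0935, beside 0.141 in the main fit. Fitting the replicate block called 853 genes, of which 686 are shared with the 834. Of the 10 genes and the 13 pathway genes named by the rule, it changed only the call of Stat3. The pathway calls still numbered 3 higher and 6 lower, so a pathway gene outside the 13 gained a call as lower. Depth limits low genes, whose differences the scale compresses.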
